A study of Mus musculus with 2 samples.

Results

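Kidneys of wild-type mice were profiled by droplet single-cell RNA sequencing, with 1 library after injury by folic acid (FA), a vitamin toxic to tubules in excess, and 1 library of control kidney. The sources used here give neither the dose, the time after FA nor how many animals each library holds. Fibrinogen tubule barcodes are FA barcodes that carried 5 or more unique molecular identifiers (UMIs, counted RNA molecules) of the fibrinogen genes Fga, Fgb and Fgg together and at least 1 UMI of the tubule genes Lrp2, Slc34a1, Miox and Gatm. They also had at most 1 UMI of the injury genes Havcr1 and Krt20 and fewer than 5 UMIs of the macrophage genes C1qa, C1qb and C1qc. These measured values chose them, so their fibrinogen level is a description and not a result. The rule found 812 barcodes among the 15922 FA barcodes that passed the cell filter and the 22217 of both libraries; the same rule found 15 control barcodes.

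Fibrinogen is the soluble protein that thrombin turns into the fibrin of a clot. It is built from pairs of the Aα, Bβ and γ chains, encoded by Fga, Fgb and Fgg, and it comes mainly from hepatocytes, which raise it in the acute phase response under interleukin-6 and STAT3. Proximal tubule cells reabsorb most of the filtered solutes and proteins of the kidney and are a main site of folic acid injury, after which surviving cells can carry injury genes such as Spp1 (osteopontin, a secreted phosphoprotein), Havcr1 (kidney injury molecule) and Vcam1 (an adhesion molecule).

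The 3 chain genes lie next to each other on mouse chromosome 3, Fgg from 83007724 to 83015056, Fga from 83026153 to 83033627 and Fgb from 83042246 to 83049863 (RefSeq, assembly GRCm38.p6). Because their transcripts were counted in the same barcodes, the 250 bases before each start are shown, read 5′ to 3′ on the gene's own strand. Capitals mark CTGGGA, known from rat acute phase genes as the core of an interleukin-6 response element.
Fga, chr3:83025903-83026152, plus strand: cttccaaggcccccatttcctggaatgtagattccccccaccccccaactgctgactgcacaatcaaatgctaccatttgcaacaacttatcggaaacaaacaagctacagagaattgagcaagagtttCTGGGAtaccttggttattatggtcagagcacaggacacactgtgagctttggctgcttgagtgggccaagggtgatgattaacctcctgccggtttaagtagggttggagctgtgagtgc
Fgb, chr3:83049864-83050113, minus strand: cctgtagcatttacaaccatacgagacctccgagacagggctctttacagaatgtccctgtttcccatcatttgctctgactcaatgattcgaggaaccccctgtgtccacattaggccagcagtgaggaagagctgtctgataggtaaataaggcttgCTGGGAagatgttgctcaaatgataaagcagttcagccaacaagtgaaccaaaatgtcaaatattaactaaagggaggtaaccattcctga
Fgg, chr3:83007474-83007723, plus strand: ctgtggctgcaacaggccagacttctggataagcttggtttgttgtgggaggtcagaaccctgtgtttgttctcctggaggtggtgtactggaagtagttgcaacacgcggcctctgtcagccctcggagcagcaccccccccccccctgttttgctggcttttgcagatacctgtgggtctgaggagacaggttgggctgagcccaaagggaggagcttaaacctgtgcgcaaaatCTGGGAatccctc
CTGGGA began 121 bases before the start of Fga, 91 before that of Fgb and 13 before that of Fgg. It occurred on either strand in 27.0% of 32851 windows of the same length before RefSeq starts, so its presence before all 3 genes is a description of these letters. TTCNNNGAA, the STAT motif, was found before Fga and Fgb (7.02% of windows) and TTGCNNCAA, a C/EBP motif, before Fga (1.74%). GTTAAT, a half-site of HNF1 transcription factors, was found on the opposite strand before Fga and Fgb (6.43% of windows). None of these matches overlapped another, and the motifs were chosen with the sequences in view.

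The FA library held 18997 barcodes and 84138607 UMIs and the control library 9681 barcodes and 63646459 UMIs. Fibrinogen tubule barcodes had a median of 4880.5 UMIs (range 610 to 73295), 1731 genes and 12.8% mitochondrial UMIs. There is 1 library per condition, so no test was run: every interval is at 95% and covers counting error only, and cells of 1 library are not replicates. A gene counted as measured when the groups compared held at least 50 UMIs of it together, and was counted as higher or lower at a 2-fold ratio of CPM (UMIs of a gene per 1000000 summed UMIs of the group). UMIs count molecules and are not divided by gene length. The 2 libraries differed in transcripts tied to sex. Xist, the RNA that coats an inactive X, had 1813 CPM in fibrinogen tubule barcodes and 0.352 CPM in control tubule barcodes, and the Y-linked gene Ddx3y had 0 and 81.6 CPM, so treatment, sex and library cannot be told apart in any comparison with control. Of the barcode sequences, 54 occurred in both libraries, 1 of them in a fibrinogen tubule barcode.

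The proximal tubule label was set beside markers, of which Lrp2, Slc34a1, Miox and Gatm are the 4 tubule genes of the rule. Their detection is in part fixed by it. Of 13 proximal tubule markers, 12 were above 0 in fibrinogen tubule barcodes, and Slc7a13, a marker of the last segment, was at 0. Slc7a13 was also at 0 in all other FA groups, the tubule, T cell and B cell ones alike, and had 107 CPM in control tubule barcodes. Its 0 is thus not particular to fibrinogen tubule barcodes. The libraries also differ in sex-linked transcripts and gene naming, whose part in it was not tested. The 13 markers, rule genes included, summed to 9163 CPM. The sodium-sulfate transporter Slc13a1 had a UMI in 96.8% of fibrinogen tubule barcodes. The glucose transporter Slc5a2, typical of the first segment, had one in 65.1%. The phosphate transporter Slc34a1, a rule gene, had one in 86.0%. Hepatocyte markers summed to 112 CPM over the 7 of 10 found in the file, and albumin (Alb) had 0.915 CPM (0.297 to 2.13). Thick ascending limb markers summed to 168 CPM, macrophage markers to 224 CPM, podocyte markers to 108 CPM, T cell markers to 20.1 CPM and endothelial markers to 15.4 CPM. Not every barcode was clearly tubular: 58 (7.14%) rested on 1 tubule UMI, 53.8% carried a UMI of the immune genes Ptprc, Cd74 or Tyrobp, and 293 (36.1%) had more than 20% mitochondrial UMIs. A narrower set was therefore defined after the data were seen. Barcodes were called tubule-dominant when they had 5 or more UMIs of the 4 tubule genes, and at least 3 times as many of these as of the podocyte, endothelial and immune markers together. Of the 812 barcodes 551 (67.9%) met this. Their macrophage markers summed to 13.7 CPM, with C1qb and Lyz2 at 0, and their podocyte markers to 31.0 CPM.

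The rule sums the 3 chains, so how often they were found together in these barcodes is in part fixed by it. All 3 had a UMI in 565 of the 812 barcodes (69.6%), 2 chains in 222 (27.3%) and 1 chain in 25 (3.08%), of which 21 held Fgg alone. Fgg had 6129 UMIs, Fgb 2686 and Fga 2898, or 52.3%, 22.9% and 24.7% of the fibrinogen UMIs. Fgg was the chain with the most UMIs in 532 barcodes (65.5%), Fgb in 100 and Fga in 88. Per barcode the fibrinogen sum had a 10th percentile of 5, a median of 9 and a 90th percentile of 28 UMIs, with 129 in the highest. Relative to depth the median was 2245 CPM and the range 95.5 to 20359 CPM, so barcodes that met one threshold differed widely in level.

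Fibrinogen RNA was not limited to barcodes that met the rule. Of the 25245 fibrinogen UMIs in kept FA barcodes, 46.4% lay in the 812 barcodes, 29.0% in tubule barcodes with 2 or more Havcr1 and Krt20 UMIs, and 89.6% in barcodes with any tubule marker. Summed over groups, fibrinogen was 2142 CPM (2104 to 2181) in fibrinogen tubule barcodes and 1277 CPM (1248 to 1307) in 645 Havcr1/Krt20-positive tubule barcodes. It was 33.0 CPM (30.9 to 35.4) in 3310 control tubule barcodes. T cell barcodes (3 or more UMIs of Cd3d, Cd3e, Cd3g and Trac), which should lack the genes, had 55.5 CPM in FA and 2.62 CPM in control, and B cell barcodes (3 or more of Cd79a, Cd79b and Ms4a1) 36.2 CPM in FA and 2.16 CPM in control. The chains stood in a similar proportion in FA T cell barcodes (Fgg 47.8%, Fgb 27.9% and Fga 24.3%) and in Havcr1/Krt20-positive tubule barcodes (48.3%, 29.0% and 22.7%). FA T cell barcodes thus carried a higher fibrinogen level in CPM than control tubule barcodes did.

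To compare shares at one depth, each barcode was thinned to 1000 UMIs. A fibrinogen UMI was then found in 44.2% (42.1 to 46.3) of 2189 FA tubule-dominant barcodes, chosen without fibrinogen, and in 3.57% (2.85 to 4.42) of 2266 control tubule-dominant barcodes. The share was 48.2% (44.2 to 52.2) of 633 Havcr1/Krt20-positive tubule barcodes. It was 4.51% (3.67 to 5.48) of 2129 FA T cell barcodes and 5.01% (3.43 to 7.03) of 619 FA B cell barcodes. In control, 0 of 623 T cell barcodes had one, which allows a share of up to 0.482% of cells with a UMI (3 counts of the total; the exact upper limit is 0.590%), and 0.317% (0.00804 to 1.76) of 315 B cell barcodes. Median depths before thinning were 3972 UMIs in FA and 7070.5 in control tubule-dominant barcodes, 3124 and 3569 in FA and control T cell barcodes, and 2360.5 and 3614 in FA and control B cell barcodes. Without thinning the shares were 69.7% of FA and 21.6% of control tubule-dominant barcodes, and 13.5% of FA T cell barcodes. In FA, tubule-dominant barcodes lay far above the lymphocyte background; in control, the tubule share lay above that of control lymphocytes, and its interval overlapped those of FA lymphocytes.

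**Figure D1:**
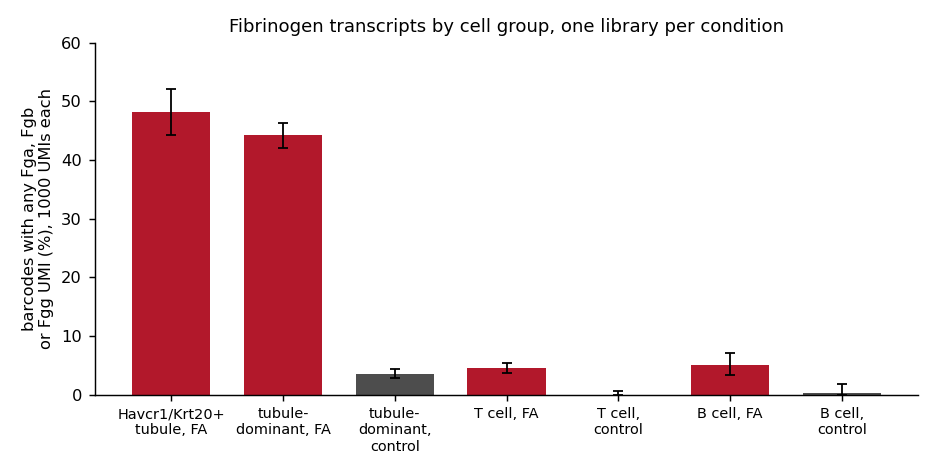
Share of barcodes with any Fga, Fgb or Fgg UMI (%, y axis) after thinning each barcode to 1000 UMIs, by cell group (x axis), FA in red and control in grey. Bars are shares and whiskers exact Clopper-Pearson 95% intervals; the FA tubule groups sit at 44.2% and 48.2% and every other group at 5.01% or below.

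Spp1 was found in nearly every fibrinogen tubule barcode. Its per-barcode level had a 10th percentile of 18321, a median of 61396 and a 90th percentile of 139406 CPM, and it had a UMI in 811 of 812 barcodes. Spp1 was also the most widely spread of the marker genes outside the tubule: after thinning to 1000 UMIs it had a UMI in 99.7% of fibrinogen tubule barcodes and in 61.2% of FA T cell barcodes. Complement C3, the central component of the complement cascade, had a UMI in 84.7% of barcodes and a median of 1219 CPM. Cyp4a14, a fatty acid hydroxylase driven by the lipid-sensing receptor PPARα, had a UMI in 32.3%. Barcodes just inside the threshold resembled those just outside it. With 5 fibrinogen UMIs, 115 barcodes had 38944 CPM of Spp1, 1174 CPM of C3 and 190 CPM of Cyp4a14. With 4, 178 barcodes had 40050, 1460 and 124 CPM.

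The first comparison set these barcodes against the 4542 FA barcodes with a tubule marker and no fibrinogen UMI. A minority of that group was clearly tubular. Of its barcodes 2115 (46.6%) had exactly 1 tubule UMI and 687 (15.1%) were tubule-dominant. Proximal tubule markers summed to 9163 CPM in fibrinogen tubule and 2525 CPM in fibrinogen-negative barcodes, macrophage markers to 224 and 8232 CPM, podocyte markers to 108 and 1487 CPM, and pan-immune markers to 1113 and 9680 CPM. The rule limited C1q in fibrinogen tubule barcodes and not in fibrinogen-negative ones, which in part fixes the macrophage and pan-immune sums. Of 13641 genes measured, 13.8% were higher and 24% lower in fibrinogen tubule barcodes. Among tubule-dominant barcodes, 551 against 687, it was 0.735% and 1.4% of 9115 genes. Proximal tubule markers were then 11769 CPM in fibrinogen tubule and 14175 CPM in fibrinogen-negative barcodes, macrophage markers 13.7 and 28.9 CPM, and podocyte markers 31.0 and 49.4 CPM. Of the 1582 higher genes still measured there, 39 were higher by 2-fold again, and 6 were lower. Of the 877 lower genes still measured, 46 were lower again and 8 higher. The accounts below therefore give the tubule-dominant values first. Median depths in these sets were 5202 UMIs in fibrinogen tubule and 2939 UMIs in fibrinogen-negative barcodes, and mitochondrial shares 13.5% and 12.4%. A further narrowing kept barcodes between 2888 and 8724.25 UMIs, called middle depths.

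Of the 15 genes named as higher by the ranking rule, 14 passed 2-fold with every barcode, and 7 of the 15 did so among tubule-dominant barcodes; all 15 kept the sign. C3 had 1893 CPM in fibrinogen tubule and 594 CPM in fibrinogen-negative tubule-dominant barcodes, a ratio of 3.18 (3.02 to 3.36). Spp1 had 61370 and 22311 CPM, a ratio of 2.75 (2.73 to 2.78). Gc, the plasma vitamin D-binding protein, had 457 and 175 CPM (2.62, 2.36 to 2.90). These 3 code for secreted proteins, as do the selenium carrier Selenop (431 CPM in fibrinogen tubule and 187 CPM in fibrinogen-negative barcodes) and Wfdc2, a protein with whey acidic domains (456 and 213 CPM). Lgmn, a lysosomal protease, had 1077 CPM in fibrinogen tubule and 484 CPM in fibrinogen-negative barcodes, and Mgst1, a membrane glutathione transferase, 277 and 128 CPM. The other 8 were higher by less than 2-fold there. Log2 ratios were 0.97 for the membrane protein Tmem176a, 0.96 for Enpp6, a choline phosphodiesterase, 0.93 for Apob, the protein of low-density lipoprotein, and 0.82 for Cd63, a tetraspanin of late endosomes. They were 0.76 for the phosphate transporter Slc17a1, 0.72 for Cyp4b1, 0.58 for the organic anion transporter Slc22a6 and 0.53 for the glucuronosyltransferase Ugt2b34. At middle depths Apob reached 1.55 and Cd63 1.01.

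Cyp4a14, listed as a marker of these cells, was higher by less than 2-fold among tubule-dominant barcodes. It had 231 CPM in fibrinogen tubule and 195 CPM in fibrinogen-negative tubule-dominant barcodes, a ratio of 1.18 (1.06 to 1.32). With every barcode the values were 172 and 28.2 CPM. Under the strict definition (5 or more tubule UMIs and no Ptprc, Cd74 or Tyrobp) they were 311 CPM (287 to 338) in fibrinogen tubule and 173 CPM (156 to 192) in fibrinogen-negative barcodes, a ratio of 1.80 (1.57 to 2.05). Thinned to 1000 UMIs, 13.9% (11.6 to 16.5) of fibrinogen tubule barcodes and 14.4% (11.8 to 17.4) of fibrinogen-negative tubule-dominant barcodes held a Cyp4a14 UMI. In the same thinned barcodes C3 was found in 66.5% and 27.5%, against 7.52% of FA T cell barcodes. The fibrinogen tubule shares cover every such barcode with at least 1000 UMIs, tubule-dominant or not, so the groups were not chosen alike.

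**Figure D2:**
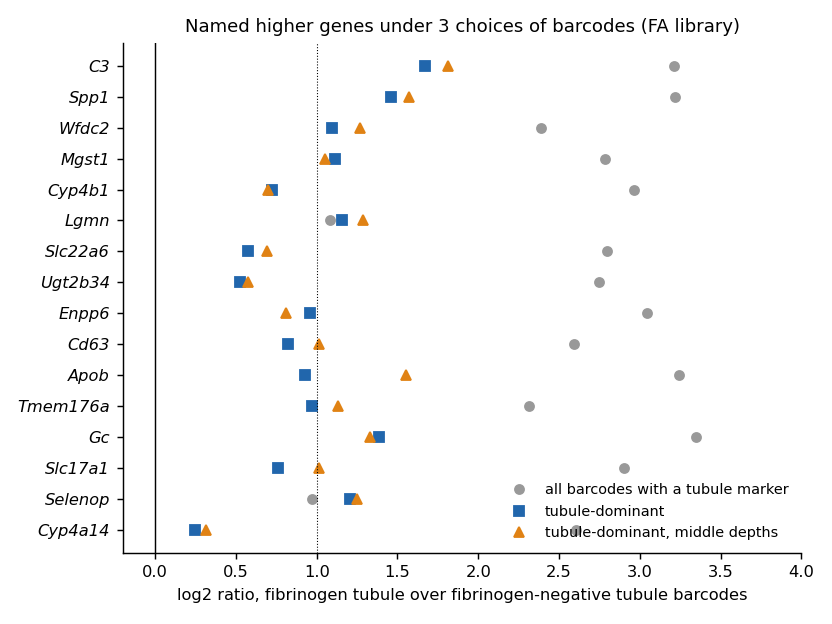
Log2 ratio of CPM, fibrinogen tubule over fibrinogen-negative tubule barcodes of the FA library (x axis), for the 15 genes named as higher and Cyp4a14 (y axis). Circles use all barcodes, squares tubule-dominant ones and triangles tubule-dominant ones at middle depths; the dotted line is 2-fold. Most circles lie right of the squares; Cyp4a14 is at 2.60 with all barcodes and at 0.24 with tubule-dominant ones.

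The 15 genes named as lower were mainly genes of other cells. They included the podocyte genes Nphs1 and Cdkn1c, the chemokine Ccl2, the leukocyte genes Cd52, Itgam, Cmtm7, Ms4a6c, Gpsm3 and Ccrl2, the actin-binding gene Tmsb4x, and Sema3g, Bcl2a1b, Ifi203, H2-Q6 and H2-Q7. Since the rule limited C1q in fibrinogen tubule barcodes only, the lower values of genes found in macrophages are in part fixed by it. Tmsb4x had 1013 CPM in fibrinogen tubule and 19992 CPM in fibrinogen-negative barcodes. Among tubule-dominant barcodes it had 49.9 and 118 CPM, and at their middle depths 16.2 and 15.3 CPM. Among tubule-dominant barcodes of all depths 4 of the 15 were still measured, and these 4 were lower by 2-fold, which the ranking in part fixes. In the full set of fibrinogen tubule barcodes, 1 barcode gave 76.3% of the Cdkn1c UMIs, 72.7% of those of Ccl2, 59.3% of those of Nphs1 and 55.9% of those of Sema3g. The rule's own tubule genes lay within 2-fold among tubule-dominant barcodes. Log2 ratios were -0.03 for Slc34a1 and -0.12 for Lrp2 (0.36 and 0.31 at middle depths). They were lower for Gatm, an enzyme of creatine synthesis (-0.48), and for Miox, which breaks down inositol (-0.57).

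Gene groups were next counted among tubule-dominant barcodes, where the median log2 ratio of all 9115 genes was -0.12. Of these genes 0.735% were higher and 1.4% lower, and of the 13641 measured with every barcode 13.8% and 24%. Complement genes were higher as a group: 8 of 9 measured were higher and none lower, with a median log2 ratio of 1.40. Besides C3, the protease Cfi had 107 CPM in fibrinogen tubule and 41.5 CPM in fibrinogen-negative barcodes, and factor B (Cfb) 52.5 and 19.9 CPM. C4b, C1ra and C1s1 were higher by 1.06, 1.15 and 1.44 on the log2 scale, and C2 by 0.69, short of 2-fold. With every barcode 7 of 12 were higher and 1 lower. Clu (clusterin), also higher, drew 51.1% of its UMIs in fibrinogen tubule barcodes from 1 barcode.

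Transport and enzyme genes of the proximal tubule gave few calls, and so did all genes, with 0.735% higher and 1.4% lower. Lists of this size would hold few or none at those shares. None of 30 pan-proximal genes measured was higher or lower (median log2 ratio 0.10), and of the 12 genes of the first segment only Gc was higher (median 0.22). Of 12 genes of the later segments 1 was higher (0.40), Cyp2e1, with 40.2 CPM in fibrinogen tubule and 14.4 CPM in fibrinogen-negative barcodes. Slc5a2 had 541 CPM in fibrinogen tubule and 530 CPM in fibrinogen-negative barcodes. With every barcode 27 of the 30 and all 12 first-segment genes were higher, beside the proximal tubule marker sums of 9163 and 2525 CPM given above. PPARα targets were higher in 0 of 24 (0.10), against 20 of 25 with every barcode. Transcription factors of liver and proximal tubule were neither higher nor lower in any of 9 (median -0.40): Hnf4a had 137 CPM in fibrinogen tubule and 181 CPM in fibrinogen-negative barcodes. Mitochondrially encoded genes were alike (0 of 13 higher or lower, median 0.06).

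Of all genes 0.735% were higher and 1.4% lower in this comparison. Genes of interleukin-6 signalling and STAT3 gave no common direction, with 1 of 18 higher, 1 lower and a median of 0.15. The higher one was Timp1, an inhibitor of matrix proteases, with 30.7 CPM in fibrinogen tubule and 12.99 CPM in fibrinogen-negative barcodes, and the lower one the kinase Pim1, with 6.57 and 14.8 CPM. Stat3 had 64.4 CPM in fibrinogen tubule and 58.5 CPM in fibrinogen-negative barcodes, and the receptor chain Il6st 53.6 and 47.6 CPM. Osmr, the oncostatin M receptor, had 19.4 and 13.7 CPM, and 20.04 and 6.89 CPM at middle depths. Socs3, a feedback inhibitor, had 59.4 and 52.7 CPM, and 11.0 and 29.1 CPM at middle depths. Under the strict definition Socs3 was lower, with 29.0 CPM in fibrinogen tubule and 99.3 CPM in fibrinogen-negative barcodes. Of 4 acute phase genes measured, 1 was higher, Lbp, the lipopolysaccharide-binding protein, with 13.7 and 5.77 CPM. The median of these 4 was 0.19.

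Among tubular injury markers 4 of 23 were higher and 2 lower (median -0.29), beside 0.735% and 1.4% of all genes. Sox9, a regulator of tubule repair, had 67.3 CPM in fibrinogen tubule and 24.2 CPM in fibrinogen-negative barcodes, and Vcam1 280 and 128 CPM; Spp1 and Clu were the others. Under the strict definition the direction of Vcam1 turned, with 119 CPM in fibrinogen tubule and 199.6 CPM in fibrinogen-negative barcodes, and Sox9 had 36.4 and 36.6 CPM. Podocyte markers summed there to 49.6 CPM in fibrinogen tubule and 630 CPM in fibrinogen-negative barcodes, and their part in these values was not tested. Timp2 (1.84 and 11.9 CPM) and the chaperone Cryab (142 and 426 CPM) were lower. Of 16 genes of p53 and growth arrest 3 were lower and none higher (median -0.70). Cdkn1a, the cell cycle inhibitor p21, had 27.1 CPM in fibrinogen tubule and 88.4 CPM in fibrinogen-negative barcodes, Plk2 4.99 and 14.4 CPM, and Phlda3 4.204 and 19.1 CPM. The rule limits Havcr1, Krt20 and C1q in fibrinogen tubule barcodes and not in fibrinogen-negative ones, and Havcr1 had 18.7 and 64.2 CPM in these sets. With the same limits set on both, 551 against 664 barcodes, Havcr1 had 18.7 CPM in fibrinogen tubule and 15.7 CPM in fibrinogen-negative barcodes. Of 15 p53 and growth arrest genes 3 were then lower and none higher (median -0.64), with Cdkn1a at 27.1 and 93.8 CPM, and 4 of 23 injury markers were higher and 2 lower (median -0.18). Chaperones and enzymes of the unfolded protein response were higher in 0 of 19, with a median of 0.38. Of 9 coagulation and fibrinolysis genes, factor V (F5, 26.8 and 9.02 CPM) was higher and the plasminogen activator Plau (26.5 and 55.6 CPM) lower. Gasdermins and caspases, the subject of the series, were neither higher nor lower in any of 6, a count near the share of all genes. Gsdme had 24.7 CPM in fibrinogen tubule and 28.2 CPM in fibrinogen-negative barcodes. At middle depths Vcam1 (182 and 106 CPM), Lbp (7.76 and 4.59 CPM), C1s1 (9.05 and 5.36 CPM) and Plau (30.4 and 50.5 CPM) lay within 2-fold.

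FA tubule-dominant barcodes were then divided by their number of fibrinogen UMIs, with no limit on Havcr1, Krt20 or C1q. With 0, 1, 2 to 4, 5 to 9, and 10 or more UMIs there were 687, 366, 506, 303 and 405 barcodes, with median depths of 2939, 3423, 3772, 4928 and 7406 UMIs. Spp1 was 22311, 25491, 34858, 50222 and 75565 CPM in that order. C3 was 594, 643, 1104, 1564 and 2416 CPM, and Vcam1 128, 158, 274, 449 and 512 CPM. Each of these was higher in every later bin, on both sides of the threshold of 5. The bins at 5 or more also hold barcodes that the rule leaves out for Havcr1, Krt20 or C1q. Tubule-dominant fibrinogen tubule barcodes, which meet the rule, had 280 CPM of Vcam1, below both of these bins. Their Spp1 was 61370 CPM and their C3 1893 CPM, between the values of these bins. Cyp4a14 stayed between 194 and 235 CPM over all bins. Miox, a rule gene, was 797 CPM with 0 and 395 CPM with 10 or more fibrinogen UMIs. Gatm, also a rule gene, had 619 and 306 CPM.

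Because deeper barcodes reach a given count more easily, the same bins were drawn at middle depths, where median depths ran from 4180 to 5344 UMIs. Spp1 was 22289, 24388, 35987, 53122 and 83020 CPM, and C3 484, 677, 1145, 1446 and 2430 CPM, so both kept their order. Slc34a1, which was 2008 CPM with 0 and 1382 CPM with 10 or more fibrinogen UMIs at all depths, was 2130 and 2488 CPM at middle depths. Miox was 791 CPM with 0 and 361 CPM with 10 or more there. Slc13a1 was 1615 CPM with 0 and 3596 CPM with 10 or more, and Apob 168 and 506 CPM. Miox and Slc34a1 are rule genes whose UMIs chose tubule-dominant barcodes, so their values over the bins are a description and not a result. At these restricted depths Miox was lower with 10 or more fibrinogen UMIs than with 0, and Slc34a1 was not. The mitochondrial share ran from 11.6% with 0 to 18.0% with 10 or more, and its part in these values was not tested.

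**Figure D3:**
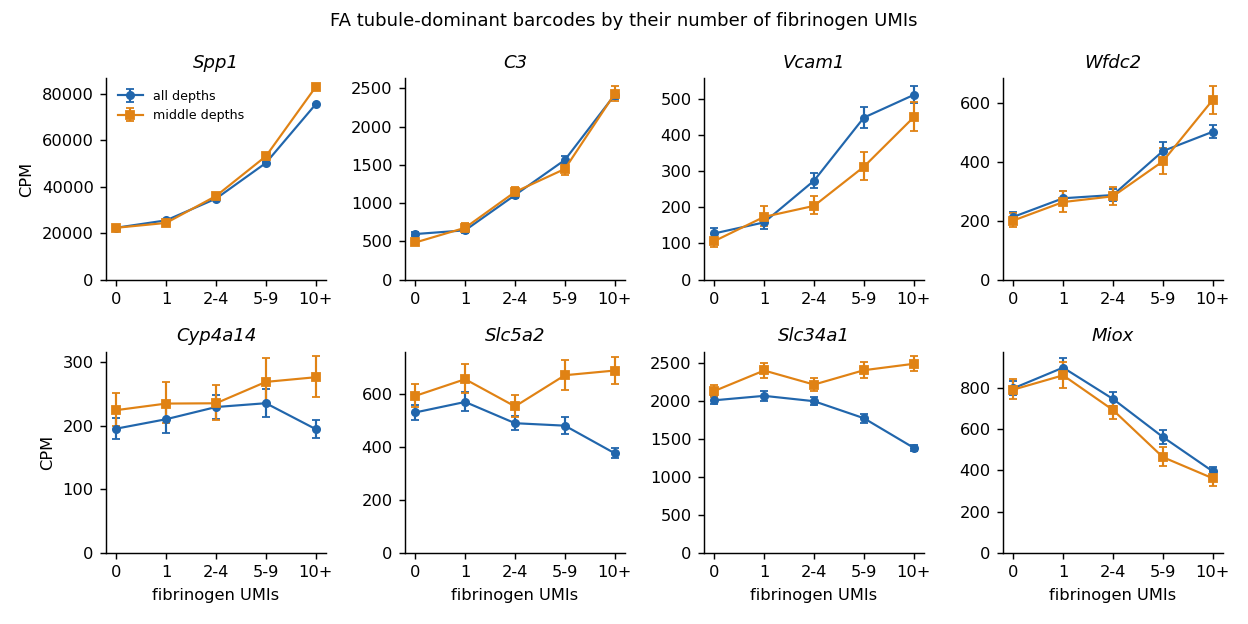
CPM of 8 genes (y axis, each from 0) in FA tubule-dominant barcodes by their number of fibrinogen UMIs (x axis), at all depths (blue circles) and at middle depths (orange squares). Whiskers are exact Poisson 95% intervals. Spp1 and C3 are higher in each later bin, Cyp4a14 stays between 194 and 276 CPM, and Miox is lowest with 10 or more. Miox and Slc34a1 are part of the rule that chose the barcodes.

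The fibrinogen tubule barcodes also varied among themselves along Spp1. They were divided into quartiles of Spp1 CPM, 203 barcodes each, and the tubule-dominant ones likewise into 137 or 138 each. From the lowest to the highest quartile of tubule-dominant barcodes C3 was 557, 1660, 2367 and 3616 CPM, and Fgg 649, 936, 1472 and 2239 CPM. Gc was 244, 398, 530 and 760 CPM, and Cd63 1511, 2252, 3045 and 4070 CPM. Mgst1 was 161, 268, 304 and 432 CPM, and Cyp4a10 was 242, 298, 346 and 441 CPM. Other genes were lower in later quartiles. Miox was 970, 452, 305 and 243 CPM, and Pck1, which controls gluconeogenesis, 4511, 2276, 1925 and 1076 CPM. The fatty acid-binding gene Fabp1 was 255 CPM in the lowest and 46.1 CPM in the highest quartile. The transporter Slc34a1 was 1849, 1872, 1945 and 2278 CPM and Slc5a2 469, 564, 562 and 600 CPM. Cyp4a14 was 266, 205, 247 and 192 CPM. Depth and RNA quality moved along. Median UMIs were 6815 in the lowest and 4220 in the highest quartile and median mitochondrial shares 6.25% and 23.5%, and their part in these gradients was not tested. All CPM values of a quartile share a total, of which Spp1 is itself a part. Fgg, Miox and Slc34a1 are rule genes that chose the barcodes, so their values are a description.

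**Figure D4:**
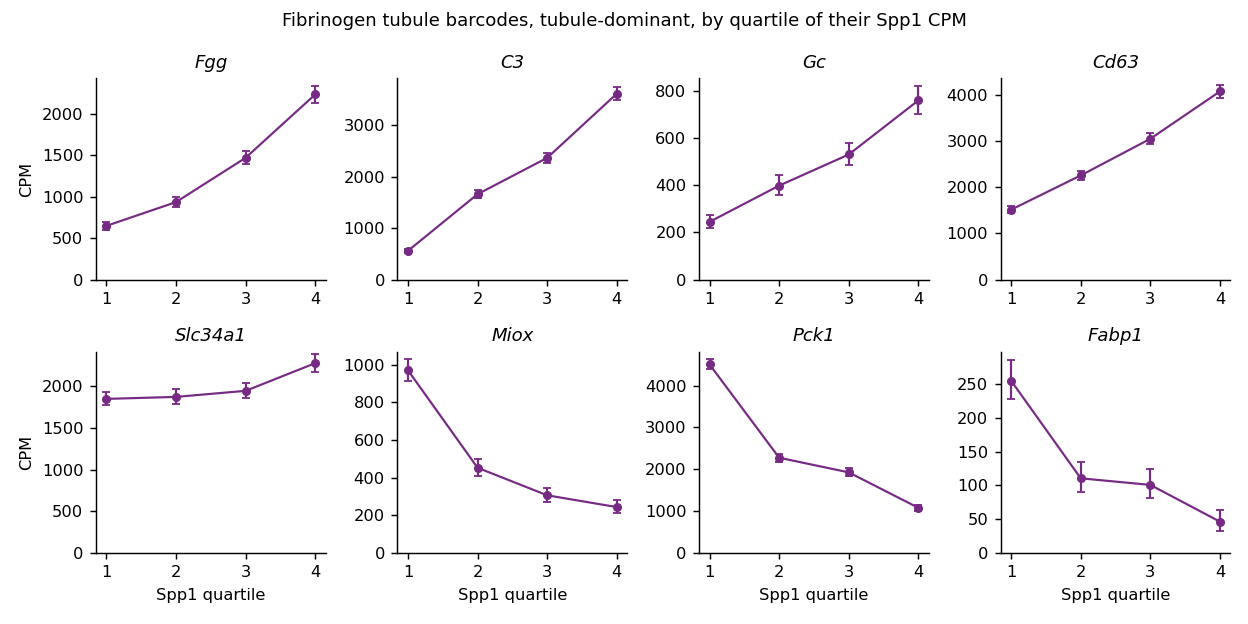
CPM (y axis, each from 0) of 8 genes in tubule-dominant fibrinogen tubule barcodes by quartile of Spp1 CPM (x axis, lowest to highest, 137 or 138 barcodes each). Points are group sums and whiskers exact Poisson 95% intervals. C3, Gc and Cd63 are higher in each later quartile and Miox, Pck1 and Fabp1 lower. Fgg is also higher. Fgg, Miox and Slc34a1 are part of the rule that chose the barcodes.

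The second comparison used the most similar state of the same library, 645 tubule barcodes with 2 or more UMIs of Havcr1 and Krt20, which the rule used and which are no result. These had a median of 7448 UMIs and 4.70% mitochondrial UMIs. Proximal tubule markers summed to 9163 CPM in fibrinogen tubule and 4125 CPM in Havcr1/Krt20-positive barcodes, macrophage markers to 224 and 184 CPM, and podocyte markers to 108 and 245 CPM. Of 10685 genes, 2.4% were higher and 1.58% lower in fibrinogen tubule barcodes. Among tubule-dominant barcodes, 551 against 243, 1.77% and 1.61% of 8983 were. Of the 167 higher genes still measured there 117 were higher again and none lower, and of 83 lower genes 67 were lower again and none higher.

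Spp1 and C3 did not separate these states. Havcr1/Krt20-positive barcodes had no limit on fibrinogen, and 82.5% of them held a fibrinogen UMI. Spp1 had 61457 CPM in fibrinogen tubule and 61097 CPM in Havcr1/Krt20-positive barcodes, and C3 2033 and 1977 CPM. Among tubule-dominant barcodes C3 was 1893 CPM in fibrinogen tubule and 2241 CPM in Havcr1/Krt20-positive barcodes. Fgb, part of the rule, was 472 CPM in each. Cyp4a14 had 172 and 93.5 CPM with every barcode and 231 and 146 CPM among tubule-dominant ones, a ratio of 1.58.

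The 8 genes named as higher by rank had mixed roles. Slc5a2 had 420 CPM in fibrinogen tubule and 100 CPM in Havcr1/Krt20-positive barcodes (log2 ratio 2.07), and G6pc, which releases free glucose in gluconeogenesis, 116 and 13.4 CPM (3.11). Spp2, a secreted phosphoprotein, had 426 and 70.8 CPM (2.59). The other named higher genes were Apob (307 and 79.0 CPM), the lactate transporter Slc16a1 (136 and 37.2 CPM), the glycine-cleaving enzyme Gldc (119 and 35.2 CPM), Selenop (357 and 112 CPM) and Igha. The last, an antibody gene, had 130 and 25.5 CPM, but 73.7% of its UMIs in fibrinogen tubule barcodes came from 1 barcode and at middle depths its log2 ratio was 0.04. All 8 were higher by 2-fold among tubule-dominant barcodes as well, which the ranking in part fixes.

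By group, 8 of 12 first-segment genes were higher and none lower (median log2 ratio 1.27, against -0.10 for all genes), and 7 of 12 among tubule-dominant barcodes (1.11). Of all genes 2.4% were higher and 1.58% lower, and 1.77% and 1.61% among tubule-dominant barcodes. The phosphate transporter Slc34a3 had 28.5 CPM in fibrinogen tubule and 3.49 CPM in Havcr1/Krt20-positive barcodes, the lactate transporter Slc5a12 267 and 74.5 CPM, and the amino acid transporter Slc6a19 63.5 and 22.9 CPM. Slc22a8, an organic anion transporter of the later list, had 93.6 and 7.85 CPM. Of 30 pan-proximal genes 8 were higher (median 0.53), with Pck1 at 2020 and 711 CPM; among tubule-dominant barcodes G6pc, Pck1 and Ass1 were. Of 12 gluconeogenesis genes 5 were higher (G6pc, Pck1, Pcx, Fbp1 and Slc37a4), with the glucose-6-phosphate carrier Slc37a4 at 89.4 CPM in fibrinogen tubule and 25.3 CPM in Havcr1/Krt20-positive barcodes. Of 13 mitochondrially encoded genes mt-Co3, mt-Atp8 and mt-Nd3 were higher (median 0.95), beside median mitochondrial shares of 12.8% and 4.70%. Factor V (22.1 and 8.72 CPM) and F13b, a subunit of the enzyme that links fibrin (20.7 and 6.11 CPM) were also higher.

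Named lower genes were the cornified envelope gene Sprr1a (16.5 CPM in fibrinogen tubule and 115 CPM in Havcr1/Krt20-positive barcodes), the small heat shock genes Hspb1 (142 and 617 CPM) and Cryab (281 and 651 CPM), the plasminogen activator Plat (30.2 and 116 CPM), and the vesicle gene Sytl2 (68.0 and 168 CPM). The chemokines Cxcl2 (117 and 356 CPM) and Ccl5 (184 and 505 CPM) and Vcam1 (348 and 955 CPM) completed the 8. All 8 were lower by 2-fold among tubule-dominant barcodes too, which the ranking in part fixes. The fibrinolysis genes Plau (29.3 and 99.8 CPM), Anxa2 (164 and 359 CPM) and S100a10 (688 and 1518 CPM) were lower with Plat. In all, 2 of 11 coagulation and fibrinolysis genes were higher and 4 lower (median -0.36), beside 2.4% and 1.58% of all genes. Of 19 chemokines and cytokines Ccn2 was higher and 5 were lower (-0.49): Cxcl2, Ccl5, Ccl2, Ccl7 and Csf1. Injury markers were mixed, with 4 of 25 higher (Krt7, Timp2, Cd24a and Clu) and 4 lower (Vcam1, Cd44, Cryab and Csf1; median -0.13); among tubule-dominant barcodes 3 of 21 were higher and 7 lower (-0.67). Timp2 had 7 UMIs in tubule-dominant fibrinogen tubule barcodes, and Clu drew most of its UMIs in fibrinogen tubule barcodes from a single barcode, as given above. Sox9 was 83.8 CPM in fibrinogen tubule and 91.8 CPM in Havcr1/Krt20-positive barcodes.

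**Figure D5:**
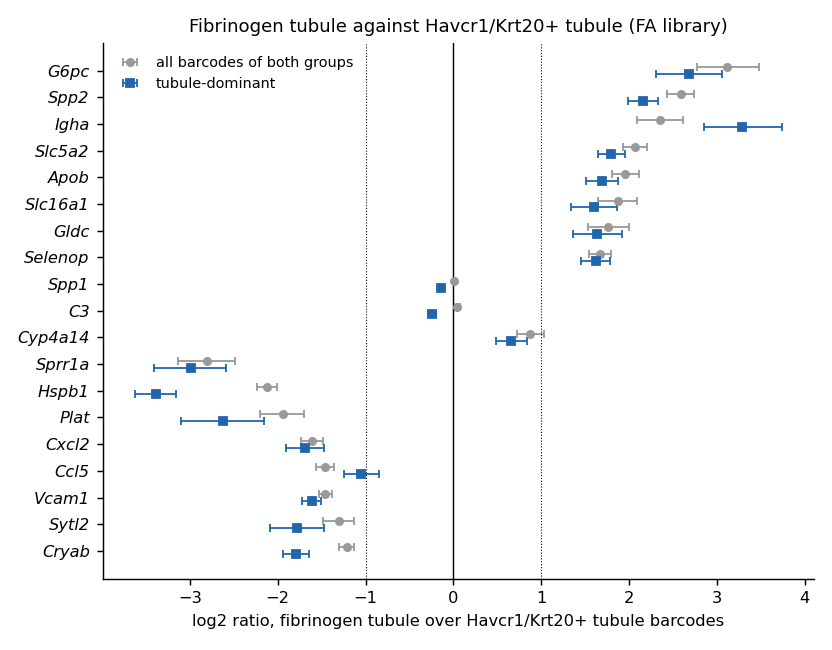
Log2 ratio of CPM, fibrinogen tubule over Havcr1/Krt20-positive tubule barcodes of the FA library (x axis), for the named genes and Spp1, C3 and Cyp4a14 (y axis). Grey circles use all barcodes and blue squares tubule-dominant ones, whiskers are exact conditional binomial 95% intervals and dotted lines 2-fold. Spp1 and C3 sit near 0 between 8 higher and 8 lower genes.

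The third comparison set fibrinogen tubule barcodes against 3310 control tubule barcodes chosen by the same tubule, Havcr1, Krt20 and C1q limits. Of 13476 genes, 5.68% were higher and 13.8% lower; among tubule-dominant barcodes, 551 against 2360, 8.46% and 9.18% of 11648 were. Fga had 530 CPM in fibrinogen tubule and 10.6 CPM in control tubule barcodes, Fgb 491 and 7.67 CPM, and Fgg 1121 and 14.8 CPM, a difference that the rule in part fixes. Spp1 had 61457 and 1171 CPM, a ratio of 52.5 (51.9 to 53.1). Beside it, FA T cell barcodes held 2867 CPM of Spp1, above the control tubule level. C3 had 2033 CPM in fibrinogen tubule and 107 CPM in control tubule barcodes, and Vcam1 348 and 22.2 CPM. The neutrophil chemokines Cxcl1 (188 and 4.93 CPM) and Cxcl2 (117 and 5.76 CPM), Fabp1 (105 and 5.52 CPM), Tmem254a (183 and 4.66 CPM) and the mitochondrial importer Timm23 (124 and 4.15 CPM) were the other named higher genes. Gene name versions differed between the libraries, and their part in Tmem254a and Timm23 was not tested.

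Cyp4a14 stood with the PPARα targets here. It had 172 CPM in fibrinogen tubule and 12.1 CPM in control tubule barcodes, and 12 of 24 such targets were higher and none lower (median log2 ratio 1.08, against -0.13 for all genes). Of all genes 5.68% were higher and 13.8% lower, and 8.46% and 9.18% among tubule-dominant barcodes. Cyp4a10 had 254 and 45.1 CPM, the thioesterase Acot1 169 and 22.4 CPM, and the lipid droplet gene Plin2 387 and 70.3 CPM. The unfolded protein response list was higher in 13 of 19 and lower in none (1.24), with the chaperones Hspa5 at 665 and 201 CPM and Hsp90b1 at 964 and 301 CPM. Interferon-stimulated genes were higher in 12 of 24 and lower in 1, Rsad2 (1.02), and in 23 of 23 among tubule-dominant barcodes (2.63). NF-kB targets were higher in 9 of 16 (1.30), and complement genes in 8 of 12 with Cd55 lower (1.63). Osmr had 28.7 CPM in fibrinogen tubule and 2.55 CPM in control tubule barcodes.

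Many genes of normal tubule function were lower than in control, where 13.8% of all genes were lower and 5.68% higher. Kap, an androgen-regulated kidney gene, had 2 UMIs in fibrinogen tubule and 107597 UMIs in control tubule barcodes, beside the sex-linked difference above. Inmt, a methyltransferase, had 3 and 8822 UMIs. Of 19 genes of the later segments 10 were lower and none higher (-1.48), and of 32 pan-proximal genes 13 were lower and 2 higher (-0.64). The 2 were Pck1, with 2020 CPM in fibrinogen tubule and 786 CPM in control tubule barcodes, and Slc13a1, with 2013 and 264 CPM. Slc34a1 had 1478 CPM in fibrinogen tubule and 4432 CPM in control tubule barcodes, Miox 397 and 2714 CPM, and Gatm 336 and 2021 CPM. These rule genes chose the barcodes of both libraries, so their values are a description. Slc6a19 had 63.5 and 415 CPM. Gc was higher, at 452 and 104 CPM. Hnf4a had 115 and 262 CPM. Of the remaining named lower genes, the endothelial genes Emcn, Fabp4 and Flt1 were at 2.01 to 3.11 CPM in fibrinogen tubule barcodes and 144 to 224 CPM in control ones, beside endothelial marker sums of 15.4 and 741 CPM. Plpp1 had 2.74 and 100 CPM. Ube2s had 5.30 and 140 CPM and the clock gene Dbp 4.21 and 104 CPM. Gsdme had 23.2 and 11.2 CPM, and 24.7 and 11.6 CPM among tubule-dominant barcodes.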

How the data were processed

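The deposited matrix holds UMI counts for 21855 genes and 28678 barcodes of both libraries, and every value was whole. The submitters' processing notes name Seurat and mm10. The aligner and counter (not given in the sources used here) stay unnamed, and no doublet caller was run. Barcodes were given to libraries by the start of their names; that C3 stands for control rests on a letter. Gene naming differed by library: 2543 names had UMIs in FA only and 1255 in control only, and 254 pairs were joined through RefSeq synonyms (GRCm38.p6).

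Barcodes with 500 UMIs, 200 genes and at most 50% mitochondrial UMIs were kept. UMIs were summed per group and scaled to CPM. Ratios have exact conditional binomial, CPM exact Poisson and shares exact Clopper-Pearson intervals at 95%. Genes were named by the smaller absolute log2 ratio over 2 definitions, every barcode and the strict one with 5 tubule UMIs and no Ptprc, Cd74 or Tyrobp, at 100 CPM or more in the higher group: 15 higher and 15 lower in the first comparison and 8 and 8 in the others. Rule, ribosomal, mitochondrial, haemoglobin, predicted and sex-linked genes were left out. Up to 4 members were added per gene list. Genes outside this rule were named after their values were seen: Cyp2e1, Ass1, Stat3, Il6st, Socs3, Osmr, Hnf4a, Slc13a1 and further list members. Some members of the lists counted are not reported here by name. The tubule-dominant set, its middle depths and its limited fibrinogen-negative group were added after seeing the data; members, lists and rules were chosen with earlier results of these data known. Ratios were tested on simulated counts. Python 3.11.15, numpy 2.4.6, scipy 1.17.1, pandas 2.3.3 and matplotlib 3.10.9 were used.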

Additional observations from a re-analysis of the deposited data

How the results depend on the processing

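The rule gave 1219 barcodes at 3 or more fibrinogen UMIs, 389 at 10 or more, 519 at no more than 20% mitochondrial UMIs and 375 without Ptprc, Cd74 and Tyrobp. Against fibrinogen-negative barcodes 1885 genes were higher and 3270 lower. The higher count was 923 with 5 tubule UMIs, 79 under the strict definition, 931 with each cell weighed the same, 2985 at a ratio of 1.5, 67 among tubule-dominant barcodes, 95 of these at middle depths, 80 with the fibrinogen-negative group of these limited on Havcr1, Krt20 and C1q, and 1027 with that limit on every barcode. The lower count was 2105 with 5 tubule UMIs, 297 under the strict definition, 128 among tubule-dominant barcodes, 100 of these at middle depths and 133 with the limited fibrinogen-negative group. Against Havcr1/Krt20-positive barcodes 256 were higher and 169 lower. The higher count was 756 at a ratio of 1.5, 470 at 20 UMIs, 112 at 200 UMIs, 159 among tubule-dominant barcodes and 146 at their middle depths. The lower count was 291 under the strict definition, 450 with each cell weighed the same, 856 at a ratio of 1.5, 400 at 20 UMIs and 65 at 200. Against control 765 were higher (1631 at a ratio of 1.5, 483 at 200 UMIs) and 1863 lower (1180 under the strict definition, 3295 at a ratio of 1.5, 985 at 200 UMIs, 1069 among tubule-dominant barcodes and 936 at their middle depths). Shares with a fibrinogen UMI at 2000 UMIs and unthinned were 60.8% and 82.5% of Havcr1/Krt20-positive, 57.8% and 69.7% of FA tubule-dominant, 8.996% and 13.5% of FA T cell and 7.84% and 10.5% of FA B cell barcodes. They were 4.81% and 16.4% of control tubule and 6.41% and 21.6% of control tubule-dominant barcodes, and 0.957% of unthinned control T cell barcodes.

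Over the genes named by rank and the markers Spp1, C3 and Cyp4a14, 4 values of called genes changed sign, in lower genes of the first comparison: Tmsb4x (log2 ratio 0.0777 at tubule-dominant middle depths), Ccrl2 (1.34 there, at 0 UMIs in fibrinogen tubule and 1 UMI in fibrinogen-negative barcodes, with the 0 set to 3 counts) and Itgam (0.0273 among tubule-dominant barcodes, 0.24 at their middle depths). A further 492 moved beyond their interval and 302 did not. Other genes the text names also turned, among them Vcam1 under the strict definition and Apoe and Socs3 among tubule-dominant barcodes. The causes were not tested. No paired analysis was possible because there is 1 library per condition. With 1 library each, differences between animals cannot be seen, and treatment, sex, library and annotation cannot be told apart. Doublets and free RNA were not removed, and FA T cell barcodes carried UMIs of fibrinogen, Spp1 and C3.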

Other observations

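Of the 1231 kept FA barcodes with 5 or more fibrinogen UMIs, 96 (7.80%) had no UMI of Lrp2, Slc34a1, Miox or Gatm, 312 (25.3%) had 2 or more UMIs of Havcr1 and Krt20, and 11 (0.894%) were left out for their C1q UMIs alone. Thick ascending limb markers had a UMI in 48.0% of fibrinogen tubule barcodes and in 48.1% of Havcr1/Krt20-positive tubule barcodes. Their summed level was 212 CPM in fibrinogen tubule and 141 CPM in fibrinogen-negative tubule-dominant barcodes. In the quartiles of Spp1 among tubule-dominant fibrinogen barcodes, Umod, which marks the thick ascending limb, was 73.6, 13.1, 8.95 and 2.49 CPM from lowest to highest.

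Slc13a1, the sodium-sulfate transporter, had 2013 CPM in fibrinogen tubule and 264 CPM in control tubule barcodes, whereas all but Pck1 of the other pan-proximal genes measured were lower or within 2-fold of control. Within the FA library it had 2377 CPM in fibrinogen tubule and 1424 CPM in fibrinogen-negative tubule-dominant barcodes. Apoe, the carrier of cholesterol-rich lipoproteins, had 1211 CPM in fibrinogen tubule and 475 CPM in fibrinogen-negative tubule-dominant barcodes, but with every barcode it was lower, at a log2 ratio of -1.05, beside macrophage marker sums of 224 and 8232 CPM.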
